A study of Mus musculus with 6 samples.

Results

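The gene Foxp3 and the genes that lie against it on the X chromosome were followed in cultured mouse CD4+ cells given a mixture that induces regulatory T cells (Tregs). The question was whether the Foxp3 difference between the groups was shared by the genes that overlap it or lie beside it. The set was taken by symbol and holds 5 of the 39179 gene identifiers counted: Foxp3, Flicr, Ccdc22, Ppp1r3f and Cacna1f. The first 4 had enough reads for a test, and Cacna1f did not. A wider set of the 77 counted gene identifiers that lie within 1 Mb of Foxp3, of which 37 were tested, served to place them in their surroundings.

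The libraries were made from polyA-selected RNA, 3 from cultures with DEL-1-Fc and 3 from cultures with Fc alone. All came from wild-type C57BL/6 mice aged 6 weeks, whose naive splenic CD4+ cells were cultured for 3 days on coated anti-CD3 (2 µg/ml, with the first letter of the unit garbled in the labels) with anti-CD28 (1 µg/ml), TGFβ1 (5 ng/ml) and IL-2 (40 ng/ml), so both groups received the same Treg-inducing mixture. DEL-1-Fc is DEL-1, a secreted protein that binds integrins, joined to the Fc part of an antibody, and the Fc group received that part alone. The labels do not say whether libraries of a group came from separate animals or cultures, so p-values rest on the spread among these 6 libraries only, which could be technical.

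Foxp3 encodes the forkhead transcription factor that defines Tregs and holds their suppressive programme in place. In the thymus it is switched on in a subset of developing T cells, and in culture TGF-β together with T cell receptor signals and IL-2 can switch it on in naive CD4+ cells. Its expression is controlled by a promoter and by conserved non-coding stretches inside the gene, whose CpG methylation is known to differ between stable and unstable Foxp3 expression. Flicr is a long non-coding RNA transcribed from the Foxp3 locus and is known to restrain Foxp3 in cis. Ccdc22 encodes a subunit of the CCC complex, which works with retriever in endosomal recycling of membrane proteins. Ppp1r3f encodes a subunit that directs protein phosphatase 1 to glycogen, and Cacna1f encodes the pore of a voltage-gated calcium channel best known from the retina.

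In GRCm38 with GENCODE M21 models, Foxp3 (ENSMUSG00000039521) occupied chrX:7573644-7595245 on the plus strand, with 18 exon blocks of 4577 bases in all. Flicr (ENSMUSG00000039545, chrX:7573600-7581027, plus strand) started 44 bases before the first annotated start of Foxp3 and shared 853 exonic bases with it, 23.8% of the exonic length of Flicr. Ppp1r3f (ENSMUSG00000039556, chrX:7557296-7574283, minus strand) ran head to head with both, with its start 639 bases inside the Foxp3 gene. It shared 266 exonic bases with Foxp3 and 310 with Flicr. Ccdc22 (ENSMUSG00000031143, chrX:7593809-7605517, minus strand) met Foxp3 tail to tail, and 590 of its exonic bases, 17.2% of them, lay over exons at the 3′ end of Foxp3. Together these genes covered 31.5% of the exonic bases of Foxp3 and left 3134 bases that belong to Foxp3 alone among the 5 genes. Cacna1f (ENSMUSG00000031142, chrX:7607083-7635196, plus strand) began beyond the start of Ccdc22 and shared no exonic base with any of them. Whether strand was used in counting, and how reads in shared exons were assigned, is not given in the sources used here, so reads from the shared stretches cannot be attributed between these genes.

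**Figure D1:**
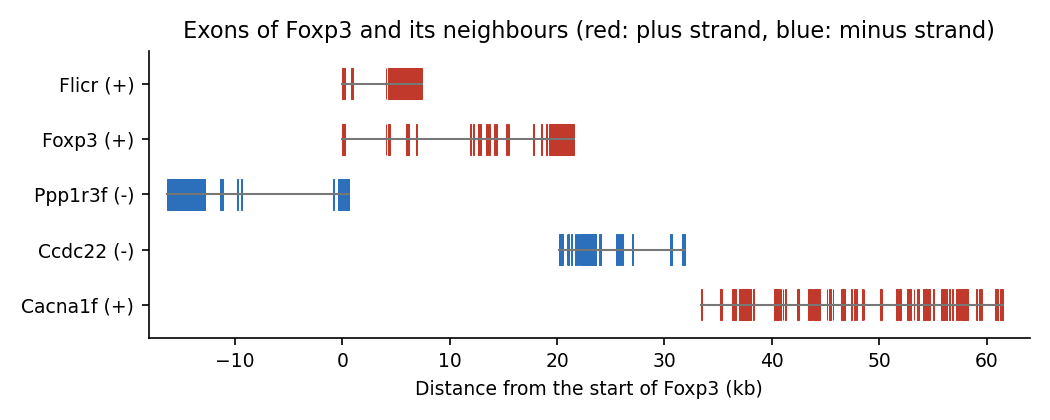
Exon blocks of Flicr, Foxp3, Ppp1r3f, Ccdc22 and Cacna1f against the distance in kb from the first annotated start of Foxp3, with plus-strand genes in red and minus-strand genes in blue. Flicr and the start of Ppp1r3f lie over the 5′ part of Foxp3, the end of Ccdc22 lies over its 3′ end, and Cacna1f lies clear of it.

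The promoter windows below are shown because they belong to genes of the locus that moved, or did not, beside Foxp3. Each runs from 250 bases before to 50 bases after a start in RefSeq (GRCm38.p6), 5′ to 3′ on the gene's own strand, with every CG in capitals, since CG is the pair of bases that carries methylation.
Foxp3, chrX:7579426-7579725, plus strand: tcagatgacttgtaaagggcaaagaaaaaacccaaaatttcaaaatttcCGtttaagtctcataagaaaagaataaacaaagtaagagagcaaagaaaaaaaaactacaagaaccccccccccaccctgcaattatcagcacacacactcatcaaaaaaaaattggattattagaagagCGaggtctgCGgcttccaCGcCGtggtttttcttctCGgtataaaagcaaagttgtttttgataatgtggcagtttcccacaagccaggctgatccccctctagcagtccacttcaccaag
Flicr, chrX:7573350-7573649, plus strand: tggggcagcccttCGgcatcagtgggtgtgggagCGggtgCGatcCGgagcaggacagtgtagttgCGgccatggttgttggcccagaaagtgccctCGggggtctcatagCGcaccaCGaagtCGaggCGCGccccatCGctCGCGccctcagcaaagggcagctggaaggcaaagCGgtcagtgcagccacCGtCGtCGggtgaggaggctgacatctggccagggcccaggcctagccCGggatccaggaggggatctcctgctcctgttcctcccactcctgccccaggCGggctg
Ppp1r3f, chrX:7574232-7574531, minus strand: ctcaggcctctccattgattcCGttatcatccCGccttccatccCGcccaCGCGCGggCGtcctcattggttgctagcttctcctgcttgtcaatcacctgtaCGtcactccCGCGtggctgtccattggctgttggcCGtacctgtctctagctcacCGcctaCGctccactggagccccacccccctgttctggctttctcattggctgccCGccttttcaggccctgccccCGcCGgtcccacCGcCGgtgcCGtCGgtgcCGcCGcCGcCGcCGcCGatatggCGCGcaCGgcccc
Ccdc22, chrX:7605371-7605670, minus strand: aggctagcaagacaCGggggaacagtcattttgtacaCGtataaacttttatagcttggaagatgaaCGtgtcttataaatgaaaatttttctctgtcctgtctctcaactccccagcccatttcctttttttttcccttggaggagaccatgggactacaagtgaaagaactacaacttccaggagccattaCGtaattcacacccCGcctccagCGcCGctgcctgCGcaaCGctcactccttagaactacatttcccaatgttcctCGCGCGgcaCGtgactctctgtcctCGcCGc
Syp, chrX:7638330-7638629, plus strand: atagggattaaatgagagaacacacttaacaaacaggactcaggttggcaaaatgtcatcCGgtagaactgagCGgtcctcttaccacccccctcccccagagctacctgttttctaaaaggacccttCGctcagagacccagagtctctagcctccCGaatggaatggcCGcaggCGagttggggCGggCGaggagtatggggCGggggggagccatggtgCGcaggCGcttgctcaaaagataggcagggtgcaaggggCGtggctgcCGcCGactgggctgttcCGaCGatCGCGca
Gata1, chrX:7967861-7968160, minus strand: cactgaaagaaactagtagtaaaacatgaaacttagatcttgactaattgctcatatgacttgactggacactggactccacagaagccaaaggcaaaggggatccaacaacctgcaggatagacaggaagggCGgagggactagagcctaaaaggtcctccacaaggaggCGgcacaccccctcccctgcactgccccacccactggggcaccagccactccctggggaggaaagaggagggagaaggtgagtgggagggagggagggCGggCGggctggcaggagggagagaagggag
The window of Foxp3, which sits at a RefSeq start downstream of the first GENCODE start, held 6 CG, and 43.6% of the 32851 promoter windows held fewer. A second RefSeq window of Foxp3, chrX:7580233-7580532, is not printed. It held 8 CG, no TATAAA and 1 NFAT core. The Ppp1r3f window held the most of the 6 with 29 CG, followed by Flicr with 20, Syp with 18, Ccdc22 with 15 and Gata1 with 4, against a median of 7 over all windows. The Gata1 window, too, sits at a RefSeq start inside the gene, downstream of its GENCODE start at chrX:7978071. The letters TATAAA, read on both strands, occurred at base 219 of the printed Foxp3 window, 3 times in the Ccdc22 window and in 13.6% of all windows. The Runx letters TGTGGT and TGCGGT, read on both strands, occurred in none of these 6 windows and in 22.4% of all windows. The NFAT core GGAAA, read on both strands, occurred 2 times in the printed Foxp3 window, 3 times in that of Ccdc22 and 1 time in that of Gata1, and in 61.3% of all windows. These matches describe the letters in the windows only.

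The libraries held 33364166 to 61967687 counts. DEL-1-Fc replicate 1 was the shallowest and stood apart from DEL-1-Fc replicates 2 and 3 on the second principal component (23.3% of the variance). On the first (44% of the variance) it lay at 47.7, against 14.27 and 12.79 for DEL-1-Fc replicates 2 and 3. The Fc libraries lay at -27.49 to -22.69 there. Below, a gene is called higher or lower where its edgeR p, adjusted over all 14928 tested genes, was under 0.05. The 9 markers of CD4+ T cells were all present, at a summed 3235 to 3377 CPM in Fc and 3355 to 3714 CPM in DEL-1-Fc. CPM are counts scaled to one common library size. Markers of B cells (6) summed to 5.78 to 8.2 CPM over all libraries and those of macrophages or monocytes (6) to 4.51 to 5.19 CPM. The 2 markers of CD8+ T cells summed to 10.1 to 10.4 CPM in Fc and 11.9 to 12.8 CPM in DEL-1-Fc. The 4 markers of NK cells summed to 191.8 to 218.2 CPM in Fc and 99.6 to 113.0 CPM in DEL-1-Fc, with Ncr1, a defining NK receptor gene, at 0 in every library. The 5 of dendritic cells summed to 8.91 to 9.02 CPM in Fc and 6.51 to 7.06 CPM in DEL-1-Fc, with Siglech at 0. Of these markers, 2 of CD4+ T cells and 1 of CD8+ T cells were called higher, against 6.4% of all tested genes. Called lower were 1 of NK cells and 1 of dendritic cells, against 6.22% of all tested genes. The NK cell sum comes from the markers other than Ncr1, whose single levels are not given here. The part of these markers in the Foxp3 difference was not tested.

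Foxp3 was higher in DEL-1-Fc. Replicates 1, 2 and 3 stood at 315.6, 414.1 and 348.8 CPM in the Fc libraries, against 521.0, 584.1 and 464.8 CPM with DEL-1-Fc. All 3 DEL-1-Fc libraries lay above all 3 Fc libraries, and within each group replicate 2 was the highest. The fold change was 1.46 (log2 fold change 0.54, SE 0.116, edgeR adjusted p = 0.0166). Among the 956 genes called higher, 6.4% of the 14928 tested, its log2 fold change ranked 537th, so many called genes rose by more. Per kb of exon, its level was 78.5 CPM in Fc and 114.3 CPM in DEL-1-Fc, rank 683 and rank 419 among 14757 tested genes with a known exon length. Foxp3 was thus an abundant transcript in both groups. More cells with the transcript and more of it per cell cannot be told apart in bulk RNA. The test was not passed when Fc replicate 1 was left out (log2 fold change 0.46, edgeR adjusted p = 0.0873), without Fc replicate 3 (0.52, 0.0753) and without DEL-1-Fc replicate 1 (0.55, 0.0928).

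Flicr, the non-coding RNA of the same strand, was also higher in DEL-1-Fc. Its level per kb of exon was 0.547 CPM in Fc and 0.9 CPM in DEL-1-Fc, far below that of Foxp3. Its raw counts were 99, 136 and 105 under Fc, against 99, 215 and 169 under DEL-1-Fc, where DEL-1-Fc replicate 1 was the shallowest library. Scaled for depth these were 1.74, 2.22 and 1.91 CPM in the Fc libraries, against 3.02, 3.8 and 2.85 CPM with DEL-1-Fc. The groups did not overlap, and Fc replicate 2 and DEL-1-Fc replicate 2 were again the highest of their groups. The rise was 1.65-fold (log2 fold change 0.72, SE 0.165, edgeR adjusted p = 0.0227). It lost its call without Fc replicate 1 (0.64, edgeR adjusted p = 0.111), without Fc replicate 3 (0.70, 0.0919) and without DEL-1-Fc replicate 2 (0.58, 0.0616).

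Ccdc22, the endosomal recycling subunit that meets Foxp3 tail to tail, was counted at 1.27, 1.53 and 1.66 CPM in the Fc libraries, against 2.01, 2.49 and 2.02 CPM with DEL-1-Fc. Every DEL-1-Fc library lay above every Fc library, but the log2 fold change of 0.55 (SE 0.169) did not pass the test (edgeR adjusted p = 0.0668). It passed without DEL-1-Fc replicate 1 (0.60, edgeR adjusted p = 0.0355). The difference was of the same size as that of Foxp3 on the log2 scale (0.55 and 0.54). Its level per kb was 0.434 CPM in Fc and 0.635 CPM in DEL-1-Fc. In GENCODE M21 another transcript, Gm36995, covers 86.3% of the exonic bases of Ccdc22 on the same strand and 46.9% of those of Ppp1r3f. It also shares 373 exonic bases with Foxp3, on the opposite strand. Gm36995 is not among the counted gene identifiers, so its level could not be read here.

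Ppp1r3f, the glycogen-directed phosphatase subunit that starts inside the Foxp3 gene, stood at 6.7, 7.38 and 7.79 CPM in the Fc libraries, against 9.66, 9.54 and 7.86 CPM with DEL-1-Fc. Its level per kb was 1.41 CPM in Fc and 1.75 CPM in DEL-1-Fc, the second highest of the set. The lowest DEL-1-Fc library, replicate 3, lay just above the highest Fc library, replicate 3, so the groups touched without overlapping. The log2 fold change of 0.31 (SE 0.117) did not pass (edgeR adjusted p = 0.13), and it passed under no alternative tried. Cacna1f, the calcium channel pore, had 1, 1 and 1 counts in the Fc libraries and 0, 2 and 3 with DEL-1-Fc. These counts are at or below the limit of 3 counts that a count of 0 allows, which is 0.049 to 0.0914 CPM depending on the library, so no difference was detectable at this depth.

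In all, 2 of the 4 tested genes of the set were called higher and 0 lower, where 6.4% of all tested genes were called higher, 6.22% lower and 12.6% in either direction. In all 4 every DEL-1-Fc library exceeded every Fc library; such separation in that direction held for 17.3% of all tested genes, and for 17.5% in the other direction. The 4 genes are not independent, since they share exons.

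**Figure D2:**
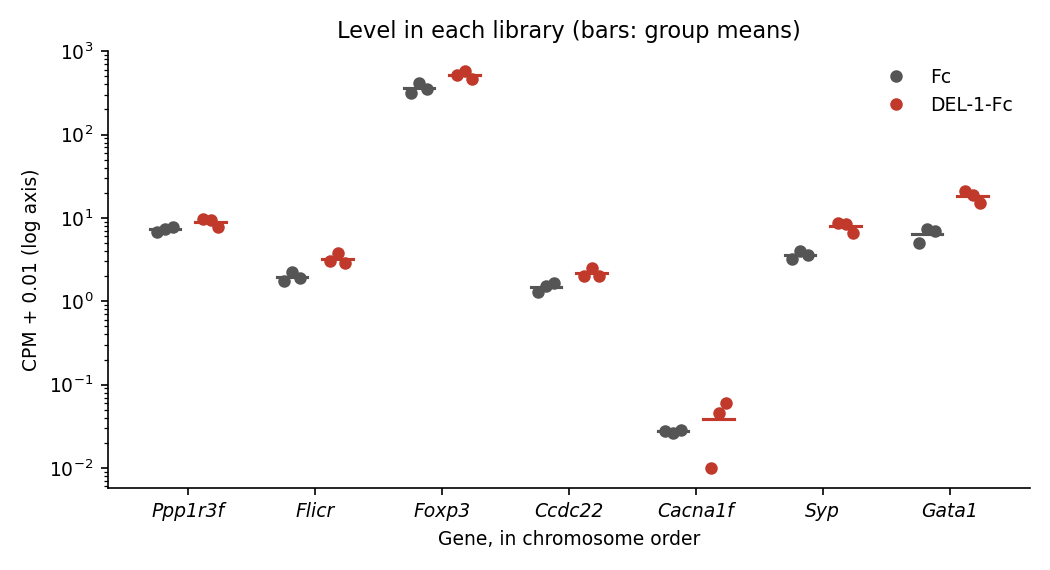
CPM plus 0.01 on a log axis for each library, with Fc in grey, DEL-1-Fc in red and bars at group means, for the 5 genes of the set and for Syp and Gata1 further along the chromosome. The groups separate for every gene but Cacna1f, whose counts are all at or below 3.

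A ratio taken within a library does not depend on how libraries are scaled. The Flicr count was 0.553%, 0.536% and 0.548% of the Foxp3 count in the Fc libraries and 0.579%, 0.651% and 0.613% with DEL-1-Fc, so Flicr took a slightly larger share in every DEL-1-Fc library. The log2 ratio of Foxp3 to Flicr was lower in DEL-1-Fc (a difference of -0.17), with no overlap of the groups (exact permutation p = 0.1, two-sided, the smallest that 3 against 3 allows, and 0.18 adjusted over the 36 pairs compared). The Ccdc22 count was 0.402%, 0.37% and 0.475% of Foxp3 in the Fc libraries and 0.386%, 0.427% and 0.435% with DEL-1-Fc, with overlapping groups and a log2 difference of -0.0070 (exact permutation p = 1, 1 after adjustment). Leaving out single libraries moved that difference between -0.11 and 0.072, both signs included. The Ppp1r3f count was 2.12%, 1.78% and 2.24% of Foxp3 in the Fc libraries and 1.85%, 1.63% and 1.69% with DEL-1-Fc, with a log2 difference of 0.24 in the ratio of Foxp3 to Ppp1r3f (exact permutation p = 0.2, 0.232 adjusted). Over single omissions that difference ran from 0.17 to 0.34. The Flicr count thus ranged from 0.536% to 0.651% of that of Foxp3, and the Ccdc22 count from 0.37% to 0.475%. These genes share 853 and 590 exonic bases with it, and the part of that sharing in their counts was not tested.

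**Figure D3:**
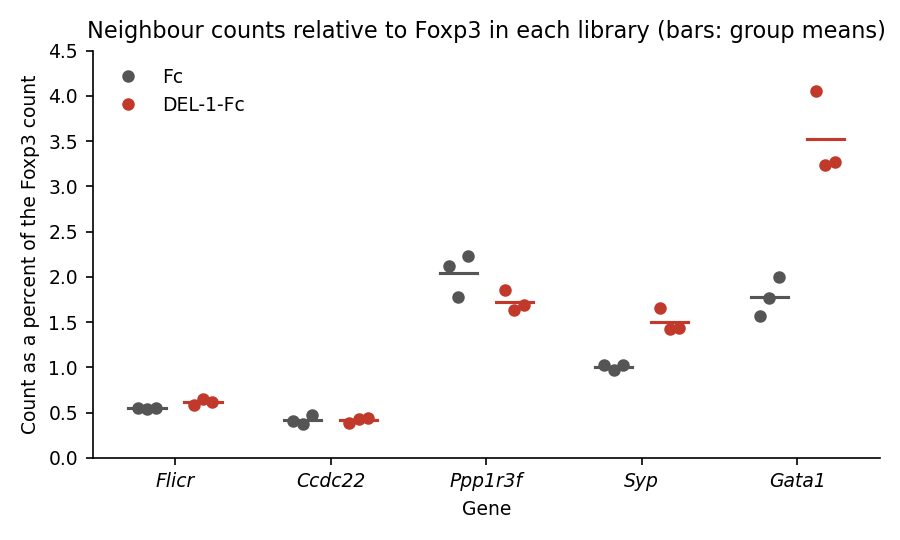
Count of each neighbour as a percent of the Foxp3 count of the same library, with Fc in grey, DEL-1-Fc in red and bars at group means, on an axis that starts at 0. Flicr and Ccdc22 stay between 0.37% and 0.651% of Foxp3 in all 6 libraries. Flicr, Syp and Gata1 take a larger share in every DEL-1-Fc library than in any Fc library. The groups overlap for Ccdc22 and Ppp1r3f.

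Most genes around Foxp3 were not called, and over all tested genes 12.6% were called in either direction. Of the 37 tested genes within 1 Mb, 5 were called higher (13.5%, against 6.4% of all tested genes) and 1 lower (2.7%, against 6.22%). The median log2 fold change was 0.0365 in the window and 0.0079 over all tested genes. The window median was 0.0207 without Fc replicate 2 and 0.101 without Fc replicate 3. Without Foxp3, Flicr, Ccdc22 and Ppp1r3f the remaining 33 genes held 3 called higher and 1 lower, with a median of -0.012. The number called higher was 2 without Fc replicate 1, 3 without Fc replicate 3 and 8 without DEL-1-Fc replicate 1, against 5. Over all tested genes the share called higher was 2.83%, 3.14% and 9.76% under the same omissions, against 6.4%. The number called lower in the window was 3 without DEL-1-Fc replicate 1 and 0 when any of the other libraries was left out. Calls over all tested genes, in either direction, numbered 3003 without DEL-1-Fc replicate 1. They numbered 901 to 1738 without any other library, against 1884. Compared within libraries, the mean ratio of Foxp3 to its neighbour was higher in DEL-1-Fc for 32 of 36 neighbours. It was higher without overlap for 17 of them, lower without overlap for 3 (Flicr, Syp and Gata1), and overlapping for 16. None of these pairs could pass, since 3 libraries against 3 cannot give an exact permutation p below 0.1. All 36 ratios share the Foxp3 count, so a neighbour that rose by less than Foxp3 tends to give a higher ratio. How often the ratio of Foxp3 to any tested gene separates the groups was not computed, so these counts have no background share.

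Gata1 had the largest rise of the window. It encodes a zinc-finger transcription factor of red cell, platelet and mast cell precursors, and lies on the minus strand at chrX:7959260-7978071, 364.0 kb beyond the end of Foxp3. Gata1 stood at 4.95, 7.29 and 6.96 CPM in the Fc libraries, against 21.1, 18.9 and 15.2 CPM with DEL-1-Fc, and the groups were far apart. The fold change was 2.87 (log2 fold change 1.52, SE 0.17, edgeR adjusted p = 0.000713), and the call held without any one library. Of the 4 red cell markers examined, Hbb-bs was at 0 in every library, and the 4 together summed to 0.211 to 0.364 CPM in Fc and 0.101 to 0.548 CPM in DEL-1-Fc. Of the 3 platelet markers, Pf4 and Ppbp were at 0 in every library, and the summed level, all from Itga2b, was 1.09 to 1.29 CPM in Fc and 0.701 to 1.13 CPM in DEL-1-Fc. The part of such cells in the Gata1 difference was not tested. The log2 ratio of Foxp3 to Gata1 was lower in DEL-1-Fc (a difference of -0.99), without overlap (exact permutation p = 0.1, 0.18 adjusted).

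Syp, which encodes the synaptic vesicle protein synaptophysin, lies on the plus strand at chrX:7638471-7653256, 43.2 kb beyond Foxp3 and just past Cacna1f. Syp stood at 3.22, 4.03 and 3.57 CPM in the Fc libraries, against 8.65, 8.33 and 6.65 CPM with DEL-1-Fc, with no overlap. The log2 ratio of Foxp3 to Syp was lower in DEL-1-Fc (a difference of -0.58, exact permutation p = 0.1, 0.18 adjusted). The fold change was 2.18 (log2 fold change 1.12, SE 0.142, edgeR adjusted p = 0.00127), and this call too held without any one library. The antisense gene Gm14703 overlaps 875 of its exonic bases (16.8%) but had only 2 to 6 counts in any library.

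Upstream, Usp27x, a deubiquitinase gene 197.8 kb before Foxp3, stood at 8.02, 8.06 and 8.36 CPM in the Fc libraries, against 11.4, 12.2 and 10.7 CPM with DEL-1-Fc (log2 fold change 0.49, SE 0.0922, edgeR adjusted p = 0.00942). The groups did not overlap. It lost the call without Fc replicate 1 (edgeR adjusted p = 0.0529) and without Fc replicate 2 (0.0562). The non-coding 2010204K13Rik, between Usp27x and Foxp3, stood at 9.25, 9.56 and 9.62 CPM in the Fc libraries, against 17.8, 10.9 and 13 CPM with DEL-1-Fc. DEL-1-Fc replicate 1 was the highest, and the difference did not pass (log2 fold change 0.55, edgeR adjusted p = 0.0584). It passed when DEL-1-Fc replicate 1 (0.33, edgeR adjusted p = 0.0303) or replicate 2 (0.70, 0.0155) was left out, with DESeq2, with library totals alone and with no filter on low counts. Praf2, a membrane protein gene 133.2 kb downstream of Foxp3, was the 1 gene called lower, at 45.5, 45.9 and 43.1 CPM in the Fc libraries, against 39.6, 34.5 and 36.2 CPM with DEL-1-Fc (log2 fold change -0.29, SE 0.0713, edgeR adjusted p = 0.0311). The Praf2 call was lost when any library but DEL-1-Fc replicate 1 was left out (edgeR adjusted p = 0.0749 to 0.136).

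The other genes nearest to Foxp3 showed no called difference. Prickle3, a planar polarity gene (log2 fold change 0.15, edgeR adjusted p = 0.389), the splicing factor gene Gpkow (0.04, 0.741) and the autophagy gene Wdr45 (0.20, 0.11) did not pass. Plp2, a membrane protein gene 72.7 kb downstream, stood at 340.1, 169.6 and 329.4 CPM in the Fc libraries, against 408.1, 166.2 and 290.2 CPM with DEL-1-Fc. Its replicate 2 was low in both groups, the groups overlapped, and the log2 fold change was 0.04 with an SE of 0.459. Ccdc120 (-0.39, edgeR adjusted p = 0.493) and the pseudogene Smt3h2-ps (-0.13, 0.666) were not called either.

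**Figure D4:**
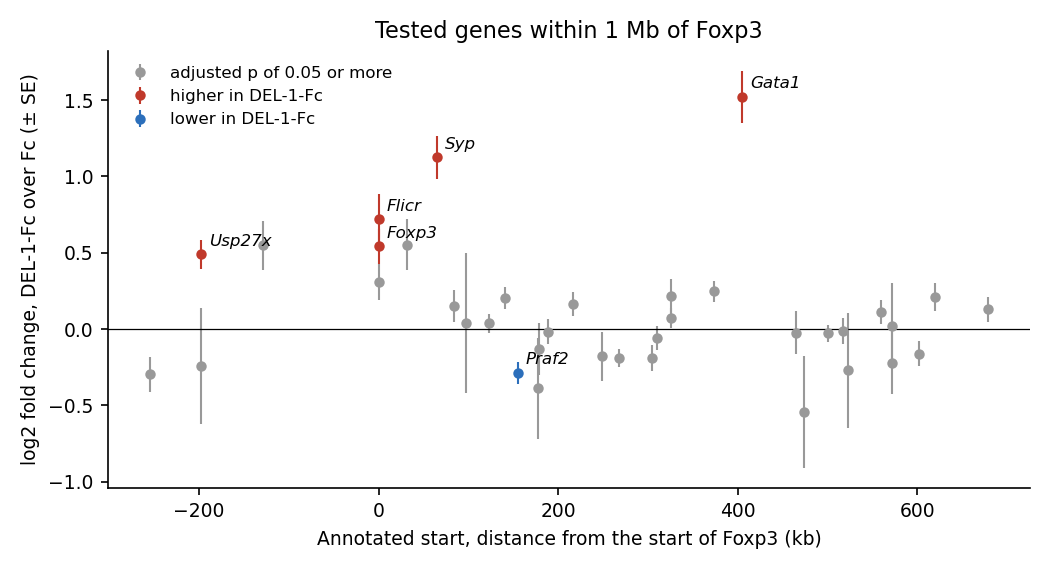
Log2 fold change of DEL-1-Fc over Fc, with SE bars, for the 37 tested genes within 1 Mb of Foxp3, against the distance of each annotated start from that of Foxp3 in kb. Red points are the 5 genes called higher, the blue point is Praf2, and grey points did not pass.

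Across the whole X chromosome, 36 of 547 tested genes were called higher (6.58%) and 15 lower (2.74%), with a median log2 fold change of 0.011. On the other chromosomes 6.41% were called higher and 6.41% lower. The labels do not give the sex of the source animals. Xist, the RNA that coats the inactive X, stood at 944.3, 986.5 and 905.2 CPM in the Fc libraries, against 485.6, 1070 and 937.2 CPM with DEL-1-Fc. DEL-1-Fc replicate 1 was the low library, and Xist was not called (log2 fold change -0.19, SE 0.294, edgeR adjusted p = 0.735). Kdm5d, Uty and Eif2s3y, genes of the Y chromosome, were at 0 in every library, and Ddx3y had 1 to 6 counts.

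By pattern over the 6 libraries, the protein-coding genes most like Foxp3 among 9200 with a mean of at least 5 CPM were Gabpb1, Tbc1d30, Disp1, Rcsd1 and Zbtb4, with Pearson correlations of log2 CPM of 0.99, 0.988, 0.987, 0.987 and 0.985. The points share the libraries and their scaling, and 111 genes reached at least 0.95, so the value is a description of the order of these 6 libraries. None of the 5 lies on the X chromosome. Zbtb4, a zinc-finger repressor gene, was the 1 of the 5 that was called with all 6 libraries, at 8.77 ± 0.93 CPM in Fc and 12.4 ± 1.22 CPM in DEL-1-Fc (SD, n = 3; log2 fold change 0.50, edgeR adjusted p = 0.0213). That call was lost without Fc replicate 1 (edgeR adjusted p = 0.107), Fc replicate 3 (0.1) or DEL-1-Fc replicate 2 (0.0562). When DEL-1-Fc replicate 1 was left out, Disp1 (0.27, edgeR adjusted p = 0.0494) and Rcsd1 (0.17, 0.0479) were called higher too.

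Factors known to act on the Foxp3 promoter or its conserved stretches were read next, upstream of the gene itself. Of 49 such factors, all tested, 4 were called higher (8.16%) and 11 lower (22.4%), with a median log2 fold change of -0.069, against 6.4%, 6.22% and 0.0079 over all tested genes. Among those called with the smallest p was Runx3, a Runx factor of cytotoxic and Th1 programmes, which averaged 137.5 ± 8.64 CPM under Fc and 74.5 ± 5.59 CPM under DEL-1-Fc (SD, n = 3; log2 fold change -0.89, edgeR adjusted p = 0.000207). The orphan receptor gene Nr4a3 (-0.74, edgeR adjusted p = 0.00107), the repressor gene Gfi1 (-0.52, edgeR adjusted p = 0.00159) and Stat3 (-0.44, edgeR adjusted p = 0.00218) were lower too. Stat3 and Stat5a share 72 exonic bases on opposite strands, and Stat5a, which with Stat5b passes the IL-2 signal to the locus, was also lower (-0.39, edgeR adjusted p = 0.00447). Stat5b was lower (-0.33, edgeR adjusted p = 0.0147), but was not called when any one Fc library was left out (edgeR adjusted p = 0.0614 to 0.079). The 4 factors called higher were Smad3 (0.41, edgeR adjusted p = 0.00637), which passes the TGF-β signal, Id3 (0.68, edgeR adjusted p = 0.0272) and Id2 (0.32, edgeR adjusted p = 0.0222), inhibitors of E proteins, and Myb (0.24, edgeR adjusted p = 0.0368). Of these Smad3 kept its call under every single omission. Id3 lost it without Fc replicate 2 or 3, Id2 without any one Fc library or DEL-1-Fc replicate 3, and Myb when any library but DEL-1-Fc replicate 1 was left out. The number of factors called lower was 7 without any one Fc library and 17 without DEL-1-Fc replicate 1. Omitting Fc replicates 1, 2 and 3 in turn gave 2, 1 and 1 called higher, and omitting DEL-1-Fc replicate 1 gave 9. Over all tested genes, calls in either direction numbered 901 to 970 without any one Fc library. They numbered 3003 without DEL-1-Fc replicate 1, against 1884, and the list counts below stand beside the same shift. The median of the factors was -0.0413 without DEL-1-Fc replicate 1, -0.141 without DEL-1-Fc replicate 2 and -0.0385 with library totals alone.

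Of 29 tested proteins that bind or modify Foxp3, or belong to its family, 2 were called higher (6.9%, against 6.4% of all tested genes). In the other direction 5 were called lower (17.2%, against 6.22%), and the median was -0.10. Foxp1, a member of the same family, was higher (0.27, edgeR adjusted p = 0.0272), though not when any one Fc library or DEL-1-Fc replicate 2 was left out (edgeR adjusted p = 0.0602 to 0.139). The 5 lower were Gata3 (-0.56), Irf4 (-0.50), Hif1a (-0.43), Hdac7 (-0.38) and Rnf31 (-0.38), each given as its log2 fold change. Leaving out Fc replicates 1, 2 and 3 in turn gave 1, 1 and 3 genes called lower and 1 called higher each time, and leaving out DEL-1-Fc replicate 2 gave 1 called higher. Leaving out DEL-1-Fc replicate 1 gave 7 called lower.

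Downstream, 9 of 22 genes known to be raised by Foxp3 were called higher (40.9%, against 6.4% of all tested genes) and 3 lower (13.6%, against 6.22%). The median log2 fold change was 0.175. Nt5e, the ectoenzyme CD73, averaged 40.4 ± 1.83 CPM under Fc and 83.9 ± 7.6 CPM under DEL-1-Fc (SD, n = 3; log2 fold change 1.06, edgeR adjusted p = 0.000109). The receptor gene Gpr83 (1.09, edgeR adjusted p = 0.000119), the semaphorin receptor gene Nrp1 (0.49, edgeR adjusted p = 0.00174) and the signalling inhibitor gene Socs2 (0.49, edgeR adjusted p = 0.00213) rose too. Ebi3, which encodes a chain of the cytokine IL-35, fell (-0.67, edgeR adjusted p = 0.0013). The costimulatory receptor gene Tnfrsf9 (-0.28) and the inhibitory receptor gene Ctla4 (-0.30) were called lower as well, but not when any one Fc library was left out, nor Tnfrsf9 without DEL-1-Fc replicate 3 or Ctla4 without DEL-1-Fc replicate 2. Omitting Fc replicates 1, 2 and 3 in turn gave 5, 4 and 6 called higher and 1 called lower each time. Omitting DEL-1-Fc replicate 1 gave 11 called higher and 5 lower. Omitting DEL-1-Fc replicate 2 gave 6 called higher and 2 lower.

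Of 13 tested genes known to be lowered by Foxp3, 1 was called higher (7.69%, against 6.4% of all tested genes) and 6 lower (46.2%, against 6.22%). The median was -0.258. Ifng, the Th1 cytokine gene, averaged 31.9 ± 3.81 CPM under Fc and 11.3 ± 2.29 CPM under DEL-1-Fc (SD, n = 3; log2 fold change -1.49, edgeR adjusted p = 0.000418). The phosphatase gene Dusp4 (-0.47, edgeR adjusted p = 0.00136) and the chromatin organiser gene Satb1 (-0.43, edgeR adjusted p = 0.00308), which is also among the factors above, fell as well. Ptpn22, a phosphatase gene of T cell receptor signalling, rose (0.29, edgeR adjusted p = 0.018), but was not called without Fc replicate 1 (edgeR adjusted p = 0.0923) or Fc replicate 3 (0.105). Omitting Fc replicates 1, 2 and 3 in turn gave 3, 3 and 4 called lower, and omitting DEL-1-Fc replicate 3 gave 3. The number called higher was 4 without DEL-1-Fc replicate 1, 2 without DEL-1-Fc replicate 3, and 0 without Fc replicate 1 or Fc replicate 3. These lists were chosen with results of these libraries known, so their counts describe the genes and are not independent evidence of a direction.

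**Figure D5:**
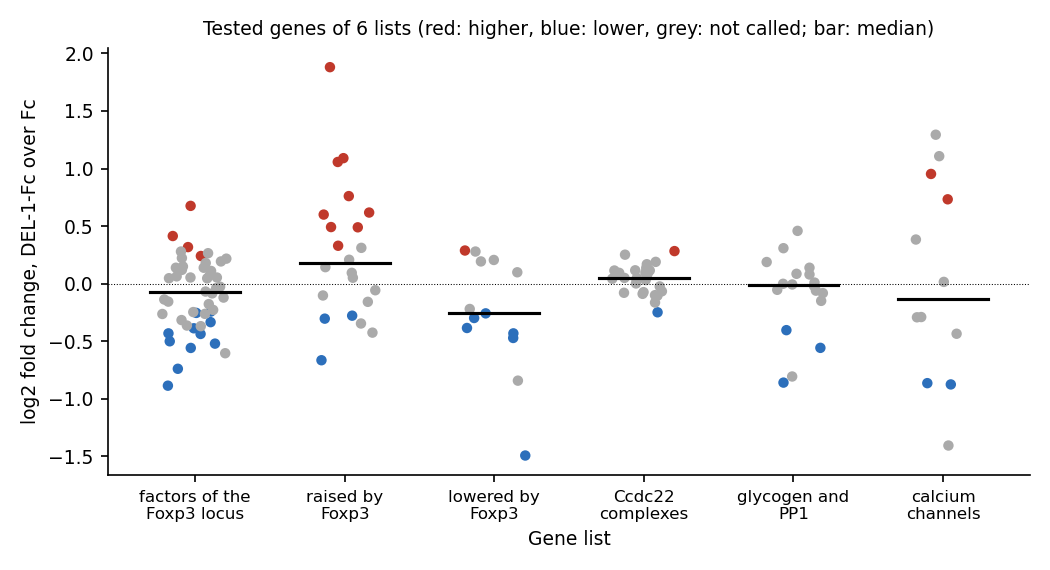
Log2 fold change of DEL-1-Fc over Fc for each tested gene of 6 lists, in red where called higher, blue where called lower and grey where not called, with a bar at each median. The genes known to be raised by Foxp3 have a median of 0.175 and those known to be lowered by it a median of -0.258, and the Ccdc22 complexes sit close to 0.

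Genes that work with the neighbours or are related to them were read next. Of 26 genes of the CCC, retriever, retromer and WASH complexes and other Ccdc22 partners, 1 was called higher (3.85%) and 1 lower (3.85%). Each share rests on 1 gene, and the shares over all tested genes were 6.4% higher and 6.22% lower. The median log2 fold change was 0.046, and it was 0.011 without DEL-1-Fc replicate 1 and 0.0884 without DEL-1-Fc replicate 2. The genes called were Vps26c, a retriever subunit (log2 fold change 0.28, edgeR adjusted p = 0.0335), and Cul2, a cullin of ubiquitin ligases (-0.25, edgeR adjusted p = 0.0489). Neither was called when any one Fc library was left out, 0 of the 26 then being called in either direction, and 2 were called each way without DEL-1-Fc replicate 1. Cul2 also missed the threshold with upper-quartile scaling (edgeR adjusted p = 0.0508), library totals alone (0.107), the filter of 1 CPM in 3 libraries (0.0501) and non-robust dispersion (0.0525). Leaving out DEL-1-Fc replicate 2 gave 2 higher and 0 lower, and leaving out DEL-1-Fc replicate 3 gave 0 higher and 1 lower. Ccdc93, the direct partner of Ccdc22 in the CCC complex, stood at 27.8, 29 and 28.3 CPM in the Fc libraries, against 25.3, 29.2 and 29 CPM with DEL-1-Fc and was not called (log2 fold change -0.02, edgeR adjusted p = 0.875).

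Of 18 tested genes of glycogen metabolism and its phosphatase, 0 were called higher (against 6.4% of all tested genes) and 3 lower (16.7%, against 6.22%). The median was -0.014. That median changed sign with single settings: it was 0.0105 without DEL-1-Fc replicate 3 and 0.0137 with library totals alone. Gys1, muscle-type glycogen synthase, averaged 23.3 ± 1.94 CPM under Fc and 15.8 ± 0.751 CPM under DEL-1-Fc (SD, n = 3; log2 fold change -0.56, edgeR adjusted p = 0.00324). Ppp1cb, a catalytic chain of the phosphatase (-0.40, edgeR adjusted p = 0.0146), and Ppp1r3b, a sister of Ppp1r3f (-0.86, edgeR adjusted p = 0.025), were lower too. Ppp1cb was not called when any one Fc library was left out. Ppp1r3b was not called without Fc replicate 2 (edgeR adjusted p = 0.101), Fc replicate 3 (0.103) or DEL-1-Fc replicate 3 (0.0662). Gys1 kept its call under every single omission, and 1 gene was called lower without Fc replicate 2 or Fc replicate 3. Without DEL-1-Fc replicate 1, 1 gene was called higher.

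Of 12 tested relatives of Cacna1f, 2 were called higher and 2 lower (16.7% each, against 6.4% and 6.22% of all tested genes). The median was -0.137. The sign of that median was not stable: it was 0.224 without Fc replicate 3, 0.145 without DEL-1-Fc replicate 1 and 0.000644 with no filter on low counts. The other omissions gave -0.236 to -0.20. The auxiliary chain genes Cacnb1 (0.73, edgeR adjusted p = 0.0063) and Cacna2d4 (0.95, edgeR adjusted p = 0.00632) rose. The auxiliary chain gene Cacnb3 (-0.86, edgeR adjusted p = 9.42e-05) and the pore gene Cacna1s (-0.88, edgeR adjusted p = 0.00857) fell. All 4 kept their calls under every single omission, and the counts became 3 higher without Fc replicate 1 and 3 lower without DEL-1-Fc replicate 1. Other calcium channel genes were thus measurable in these cells where Cacna1f was not.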

How the data were processed

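PolyA RNA-seq was measured in 3 Fc and 3 DEL-1-Fc libraries, grouped by their titles. The authors deposited raw gene-level read counts, made with STAR (no version given) and HTSeq 0.6.0 on GRCm38 (mm10), per the submitters' processing notes. Neither annotation release nor strand setting is given in the sources used here. Of 39179 gene identifiers, 37693 matched GENCODE M21, which gave symbols, positions and exons.

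Counts were tested with edgeR 4.0.16 in R 4.3.3: filterByExpr (minimum count 10, minimum total 15) left 14928 genes. Libraries were scaled by TMM, and p-values of the robust quasi-likelihood test were adjusted by Benjamini-Hochberg over all genes kept, with calls at 0.05. The SE is the absolute log2 fold change over the square root of F. Ratios of Foxp3 to each tested neighbour were compared by two-sided exact permutation. The scripts were tested on simulated data. No 2 libraries of a group agreed within counting noise (chi-square per degree of freedom at least 19.9).

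The members, lists and tests were chosen with earlier results of these data known. Named genes were the 5 members, window genes that were called, the 12 tested genes nearest to Foxp3, list members with the smallest p (up to 4, and every called member where 6 or fewer were called), and the 5 genes most like Foxp3; not all are printed, and Smad3, Id2, Id3, Myb, Stat5a, Stat5b, Tnfrsf9, Ctla4 and Ccdc93 were named after their values were seen. The values of 2 called list genes are not reported here. Floors (3 counts) cover counting error only, while the SE and SD include the spread among libraries. Alternatives were DESeq2 1.42.0, limma-voom (limma 3.58.1), RLE, upper-quartile or no scaling factors, other filters, non-robust dispersion, a replicate block, omission of single libraries, and other window sizes.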

Additional observations from a re-analysis of the deposited data

How the results depend on the processing

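Foxp3 and its 3 tested neighbours kept their direction in all 15 alternatives, with log2 fold changes over single omissions of 0.46 to 0.66 for Foxp3, 0.58 to 0.82 for Flicr, 0.44 to 0.64 for Ccdc22 and 0.25 to 0.40 for Ppp1r3f. Over all alternatives the adjusted p was 0.000174 to 0.0928 for Foxp3, 0.00327 to 0.111 for Flicr, 0.0355 to 0.235 for Ccdc22 and 0.0831 to 0.373 for Ppp1r3f. Within 1 Mb, single omissions gave 2 to 8 genes called higher, 0 to 3 lower and a median log2 fold change of 0.021 to 0.10. Genes called lower there numbered 2 with DESeq2, 0 with the replicate block and 2 within 2 Mb, against 1, and the median within 0.25 Mb was 0.15. The Foxp3 to Ccdc22 log2 difference was -0.0070 and ran from -0.11 to 0.072 over single omissions. The cause of these shifts was not tested.

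The replicate block left 1510 called genes against 1884, with Foxp3 still called (adjusted p = 0.0113), Flicr too (0.0292), and Praf2 (0.0544), Vps26c (0.0639), Cul2 (0.0598), Cd40lg (0.078), Itgae (0.0557) and Nfkb1 (0.0841) not. Deviations of same-numbered libraries correlated at 0.0163, 0.0885 and 0.0425. Every library but DEL-1-Fc replicate 1 correlated best with its own number, and that library did so with Fc replicate 3 (0.0382). These values are small and the labels state no pairing, so the numbers were not taken as pairs in the main test. DESeq2 called 2429 genes, and single omissions gave 901 to 3003.

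For 69 other named genes, 892 of 1033 alternative values kept direction and side of the threshold, 119 lost the call, 13 gained it and 9 reversed. Among the reversed, all of genes not called, Plp2 ran from -0.29 to 0.32, Smt3h2-ps from -0.29 to 0.047, Xist from -0.41 to 0.086 and Ftx from -0.072 to 0.14 over single omissions. Ftx was also below 0 without a low-count filter (-1.471e-05) and with the replicate block (-0.0071). Depth limits Cacna1f, with 8 counts in all.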

Other observations

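Rbm3, a cold-induced RNA-binding protein gene 543.7 kb beyond Foxp3, and Plp2 had a spread between replicates wider than the difference between groups. Rbm3 stood at 357.6, 376.9 and 536.0 CPM in the Fc libraries, against 586.7, 322.5 and 378.8 CPM with DEL-1-Fc, with a log2 fold change of 0.02 (SE 0.28). By contrast Suv39h1, a histone methyltransferase gene 465.9 kb beyond Foxp3, stayed between 153.5 and 161.1 CPM in all 6 libraries. Otud5, a deubiquitinase gene (log2 fold change -0.19, edgeR adjusted p = 0.0715), and Hdac6, a cytoplasmic deacetylase gene next to Gata1 (0.25, edgeR adjusted p = 0.0529), separated the groups without passing the test. These genes were named after their values were seen.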
